A study of Drosophila melanogaster with 24 samples.

Results

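The genes described here are 7 transcripts whose level in the adult fly head is known to differ between the sexes: Yp1, Yp2, Yp3 and fit, which are female-biased, and roX1, roX2 and sxe2, which are male-biased. They were chosen by name, all 7 were found among the 16727 genes of the deposited count table, and all 7 were among the 11095 genes tested. They were read in heads of cwo5073 flies, a mutant of the circadian repressor gene clockwork orange, and of wild-type flies (WT) of the w1118 strain, which the labels call the control of the mutant. Both genotypes were kept at 25 °C in cycles of 12 h light and 12 h dark for 3 days and collected at zeitgeber times (ZT, hours after lights on) 2, 6, 10, 14, 18 and 22. Each genotype and time had 2 libraries, numbered 1 and 2, which gave 24 libraries with 11319605 to 19638611 counts each. No source used here gives the sex, the age or the number of flies in a library, or says what the numbers 1 and 2 stand for beyond replicates.

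Yp1, Yp2 and Yp3 encode the yolk proteins, lipase-related proteins that are taken up by growing oocytes. They are made by the fat body and by the follicle cells of the ovary, and in the fat body the female form of the transcription factor Doublesex keeps them on while the male form keeps them off. The gene fit (female-specific independent of transformer) encodes a small secreted peptide of the fat body that lines the head capsule, known for its link to feeding on protein. The long non-coding RNAs roX1 and roX2 are part of the MSL complex, which raises transcription from the single X chromosome of males and is absent in females. The gene sxe2 (sex-specific enzyme 2) encodes a lipase-like protein and takes its name from its sex-dependent expression in the head. In whole heads, fewer cells of a type and less RNA per cell cannot be told apart.

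On the dm6 coordinates, 5 of the 7 genes lie on the X chromosome. Yp2 (chrX:10050951-10052636, minus strand) and Yp1 (chrX:10053811-10055498, plus strand) are neighbours on opposite strands, while Yp3 lies apart (chrX:13759546-13761547, plus strand). The X chromosome also holds roX1 (chrX:3857230-3862697, minus strand, 5 annotated transcripts) and roX2 (chrX:11579065-11580432, plus strand, 6 annotated transcripts). On chromosome arm 3R lie fit (chr3R:21883924-21884454, minus strand, 1 exon) and sxe2 (chr3R:16083878-16087222, plus strand, up to 5 exons).

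The yolk protein genes were among the most abundant transcripts of these heads. On the per-length FPKM scale, Yp3 averaged 6210.2 ± 4157 in cwo5073 and 2736 ± 2064 in WT (SD, n = 12 libraries each), ranks 7 and 12 among the 8486 genes of the authors' FPKM table. Yp1 followed with 5118 ± 2961 FPKM in cwo5073 and 1997 ± 1153 in WT, and Yp2 with 2826 ± 1945 and 1050.3 ± 834 FPKM in the same order of genotypes. Yp3 was above Yp1 in 8 of 12 cwo5073 and in 12 of 12 WT libraries, and Yp1 was above Yp2 in all 24. In FPKM, Yp2 was 8.17 to 22.2 times fit in cwo5073 and 4.74 to 15.9 times fit in WT.

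The other members lay lower. On the FPKM scale fit averaged 219 ± 164 in cwo5073 and 135 ± 123 in WT (SD, n = 12 each). The male-biased roX1 averaged 50.4 ± 17.8 FPKM in cwo5073 and 71.1 ± 62.3 in WT, and sxe2 averaged 57.0 ± 9.15 and 37.1 ± 12.2 FPKM. These 3 neighbours in the order overlapped within libraries: fit was above roX1 in 11 of 12 cwo5073 and 8 of 12 WT libraries, and sxe2 was above roX1 in 7 of 12 and 3 of 12. The lowest member was roX2, with 5.61 ± 1.79 FPKM in cwo5073 and 8.43 ± 2.67 in WT, below roX1 and sxe2 in all 24 libraries.

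**Figure D1:**
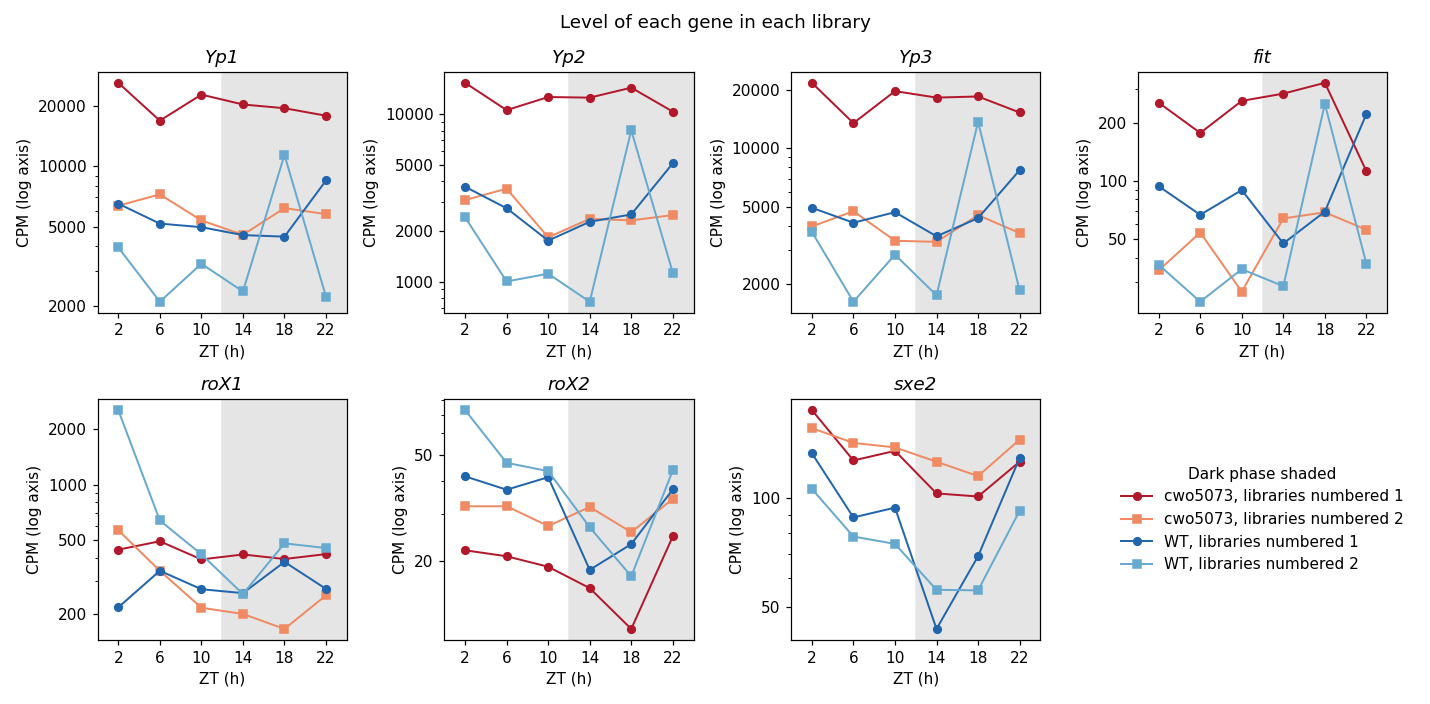
Scaled counts (CPM, log axis) of each gene against ZT in hours; each line joins the 6 libraries of 1 genotype that carry the same number, and the dark phase is shaded. In the top row the cwo5073 libraries numbered 1 lie above the cwo5073 libraries numbered 2 at every time, and the WT ZT18 library numbered 2 stands far above its own line.

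The libraries numbered 1 and 2 of the mutant differed several-fold in their yolk protein transcripts. Counts are given as CPM, scaled to a library size of 1000000 with a normalization factor. In cwo5073 libraries numbered 1, Yp1 had 26184, 16932, 22859.8, 20403, 19543 and 17928 CPM from ZT2 to ZT22, against 6359, 7248, 5369.5, 4549, 6187 and 5773 CPM in those numbered 2. The WT libraries numbered 1 had 6512, 5176, 4968, 4534, 4454 and 8505 CPM of Yp1, and those numbered 2 had 3934, 2106, 3259.8, 2369, 11427 and 2227 CPM. The cwo5073 libraries numbered 1 lay above all the others, and the highest of those others was WT ZT18 numbered 2.

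Yp2 and Yp3 had the same shape. Yp2 had 15409, 10586, 12674, 12569, 14414 and 10372 CPM in cwo5073 libraries numbered 1, and 3076, 3597, 1843, 2376, 2326 and 2502 CPM in those numbered 2. Yp3 had 21752, 13495, 19711, 18258, 18503 and 15307 CPM in cwo5073 libraries numbered 1, and 3970.3, 4754, 3350.2, 3307, 4537 and 3672 CPM in those numbered 2. In both genes the 2 mutant series did not overlap. In the WT libraries numbered 2, the ZT18 value was 8024 CPM for Yp2 and 13701 CPM for Yp3, while the highest of the other 5 was 2428 and 3723 CPM, both at ZT2.

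The fourth female-biased gene, fit, followed them at a lower level. It had 254, 177, 259.5, 283, 322 and 112 CPM in cwo5073 libraries numbered 1, and 34.3, 53.9, 26.6, 63.8, 68.6 and 55.7 CPM in those numbered 2, again without overlap. In WT, fit had 93.7, 66.6, 89.5, 47.3, 69.2 and 222 CPM in libraries numbered 1 and 36.7, 23.6, 34.8, 28.4, 250.2 and 37.1 CPM in those numbered 2. The 2 high WT values, ZT22 numbered 1 and ZT18 numbered 2, were also the highest of their series for all 3 yolk protein genes.

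Tested across all genes with edgeR's quasi-likelihood test and Benjamini-Hochberg adjustment, the mutant libraries numbered 1 exceeded those numbered 2 in Yp1 by 1.80 ± 0.31 on the log2 scale (SE; adjusted p = 0.0161). The difference was 2.29 ± 0.37 in Yp2 (edgeR adjusted p = 0.0122), 2.18 ± 0.35 in Yp3 (adjusted p = 0.011) and 2.21 ± 0.44 in fit (adjusted p = 0.0311), each higher at 6 of 6 times. Of the 7 genes 5 passed, the fifth being roX2, while 1.53% of all genes tested passed in either direction and 1.00% were higher. The mutant series did not overlap in the same 5 genes, against 9.84% of all genes tested. Which calls were kept with 1 library left out differed between genes. Without either ZT10 or ZT14 library of cwo5073, no yolk protein difference passed (adjusted p = 0.0545 to 0.0769, log2 differences of 1.73 to 2.27). The Yp1 and Yp2 calls also ended without either ZT18 library of cwo5073 (1.83 and 2.22) and the Yp1 call without either ZT2 library (1.75). The fit call ended without any 1 of the cwo5073 libraries of ZT2 to ZT18 or of the WT libraries of ZT6 and ZT10, at 2.00 to 2.33.

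In WT the libraries numbered 1 were also above those numbered 2 in these genes, by less, and the differences did not pass. The log2 difference was 0.73 ± 0.31 in Yp1, 0.87 ± 0.38 in Yp2, 0.70 ± 0.35 in Yp3 and 1.03 ± 0.46 in fit (SE; edgeR adjusted p = 0.48, 0.487, 0.518 and 0.487). Each was higher in libraries numbered 1 at 5 of 6 times, the exception being ZT18. No gene at all passed in this comparison by edgeR's test (0% of 11095, with 1105 at an unadjusted p under 0.05), and 0.0991% of the genes did not overlap between the 2 WT series. Without WT ZT2 numbered 2 and WT ZT18 numbered 2 together, chosen after the values were seen, the WT differences were 1.20 in Yp1, 1.47 in Yp2, 1.29 in Yp3 and 1.55 in fit, still short of the threshold.

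The test of whether the 2 series differ by more in cwo5073 than in WT passed for 14 genes (0.126%), none of them a member. The differences of differences were 1.07 ± 0.43 in Yp1, 1.43 ± 0.52 in Yp2, 1.48 ± 0.48 in Yp3 and 1.18 ± 0.62 in fit on the log2 scale (SE; edgeR adjusted p = 0.276, 0.235, 0.212 and 0.401).

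Together, Yp1, Yp2 and Yp3 took 3.95% to 5.83% of all counts in cwo5073 libraries numbered 1 and 1.06% to 1.60% in those numbered 2. In WT they took 1.05% to 2.15% in libraries numbered 1 and 0.503% to 3.44% in those numbered 2, whose second highest value was 0.764%. At the depth of WT ZT18 numbered 2, the share of 3.44% has a 95% Wilson interval of 3.43% to 3.45%, which covers counting error only. This WT library lay below every cwo5073 library numbered 1 and above the other 17 libraries.

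The proportions among the yolk protein genes also differed between the mutant series, here as ratios of counts and not per length. The count of Yp1 was 1.36 to 1.80 times that of Yp2 in cwo5073 libraries numbered 1 and 1.91 to 2.91 times in those numbered 2. The count of Yp3 was 0.797 to 0.947 of that of Yp1 in cwo5073 libraries numbered 1 and 0.624 to 0.733 in those numbered 2. Neither ratio overlapped between the mutant series. WT ZT18 numbered 2, the WT library with the most yolk protein counts, had the lowest Yp1 to Yp2 ratio of the 12 WT libraries (1.42, with the others up to 3.11) and the highest Yp3 to Yp1 ratio (1.20, with the others down to 0.741). In WT the ratios did not follow the yolk protein share throughout. WT ZT2 numbered 2, with a share of 0.764%, had 1.62 and 0.946, inside both ranges of cwo5073 libraries numbered 1.

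Among the male-biased genes, roX2 was the one called between the mutant series, with a sign opposite to that of the yolk protein genes. It had 22.0, 20.9, 19.1, 15.9, 11.2 and 24.8 CPM from ZT2 to ZT22 in cwo5073 libraries numbered 1, and 32.1, 32.1, 27.1, 31.9, 25.7 and 34.2 CPM in those numbered 2. The mutant series did not overlap, and those numbered 1 were lower by 0.72 ± 0.14 on the log2 scale (log2 difference -0.72, SE; edgeR adjusted p = 0.0296), where 0.532% of all genes were called lower. This call ended without any 1 of the 12 cwo5073 libraries or of the 2 WT ZT6 libraries (log2 differences of -0.78 to -0.64, adjusted p = 0.0501 to 0.112). In WT roX2 had 41.5, 37.0, 41.2, 18.6, 23.2 and 37.1 CPM in libraries numbered 1 and 73.3, 46.6, 43.4, 26.8, 17.6 and 43.7 CPM in those numbered 2, a log2 difference of -0.27 ± 0.14 that did not pass (edgeR adjusted p = 0.532).

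The other roX gene had a different pattern. In cwo5073, roX1 had 444, 493, 393, 418, 395 and 420.1 CPM in libraries numbered 1 and 566, 341, 215, 199, 165 and 251 CPM in those numbered 2. In WT it had 216, 341, 271, 258, 381 and 272 CPM in libraries numbered 1 and 2536, 639, 419, 255, 480.2 and 453 CPM in those numbered 2. The WT ZT2 library numbered 2 stood apart, and the other 23 libraries lay between 165 and 639 CPM. The difference between libraries numbered 1 and 2 was 0.69 ± 0.35 in cwo5073 and -0.94 ± 0.37 in WT (log2, SE; edgeR adjusted p = 0.266 and 0.454). The first passed without either WT ZT2 library (0.69 and 0.70, adjusted p = 0.0302 and 0.0307).

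The third male-biased gene, sxe2, did not separate the numbered series. It had 175, 127, 135, 103, 101 and 126 CPM in cwo5073 libraries numbered 1 and 156, 142, 138, 126, 115 and 145 CPM in those numbered 2, and the log2 difference was -0.12 ± 0.10 (SE; edgeR adjusted p = 0.525). In WT sxe2 had 133, 88.4, 94.1, 43.5, 69.1 and 129 CPM in libraries numbered 1 and 106, 78.3, 74.7, 55.8, 55.6 and 92.2 CPM in those numbered 2, a log2 difference of 0.21 ± 0.10 (edgeR adjusted p = 0.503). The replicates of sxe2 stayed within a narrow range while its level differed between the genotypes.

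**Figure D2:**
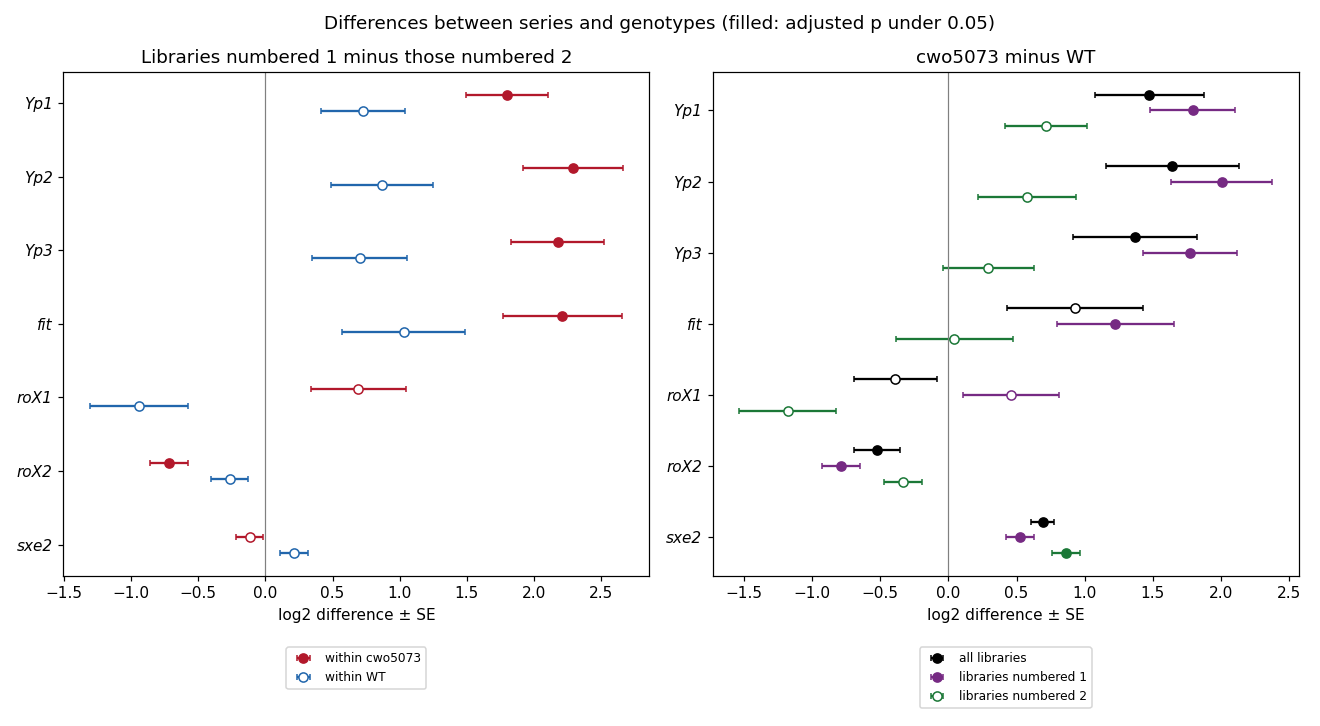
Log2 differences with their SE from edgeR, one row per gene; the left panel sets libraries numbered 1 against those numbered 2 within each genotype, the right panel sets cwo5073 against WT over all libraries and within each number, and filled points passed at an adjusted p under 0.05. The 4 female-biased genes differ between the mutant series by 1.80 to 2.29, and sxe2 is the one gene with a filled point in all 3 comparisons of the genotypes.

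The comparison of the genotypes asks what the mutant changes in the head, and for these genes it is given over all libraries and within each library number. Over all times Yp1 had a lowest, median and highest level of 4549, 12089.6 and 26184 CPM in cwo5073, against 2106, 4494 and 11427 CPM in WT (12 libraries each). For Yp3 these were 3307, 9125 and 21752 CPM in cwo5073, against 1628, 3935 and 13701 CPM in WT. The genotypes overlapped in all 7 genes, as in most genes tested (1.68% did not overlap). With edgeR's test over all libraries 5 of the 7 genes passed, where 28.0% of all genes did (14.1% higher and 13.9% lower). Yp3 was higher in cwo5073 by 1.37 ± 0.46 (log2, SE; adjusted p = 0.0378) beside the rise of Yp1 by 1.47 and of Yp2 by 1.64, and fit differed by 0.93 ± 0.50 (adjusted p = 0.166). The fit difference ranged over 0.52 to 1.23 with 1 library left out and passed in none of the 24 fits, being lowest without cwo5073 ZT10 numbered 1. Leaving out 1 library kept the Yp1 call in 24 of 24 fits. The Yp2 call ended without any 1 of the 6 cwo5073 libraries numbered 1, WT ZT18 numbered 1 or the WT ZT6 and ZT14 libraries numbered 2 (1.31 to 1.56). The Yp3 call ended without any 1 of the same 9 libraries, both WT ZT10 libraries or the WT ZT2 and ZT22 libraries numbered 2 (1.07 to 1.43).

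Within libraries numbered 1, cwo5073 exceeded WT in Yp1 by 1.79 ± 0.31, in Yp2 by 2.00 ± 0.37 and in Yp3 by 1.77 ± 0.35 on the log2 scale (SE; edgeR adjusted p = 0.00143, 0.00215 and 0.0029). The mean level of Yp2 was 12670.4 CPM in cwo5073 and 3018 CPM in WT, and that of Yp3 was 17838 CPM in cwo5073 and 4907 CPM in WT. All 3 yolk protein genes were without overlap, where 19.9% of all genes were. The gene fit was higher by 1.23 ± 0.43 (edgeR adjusted p = 0.0468), at 5 of 6 times, with ZT22 the exception. That call was kept in 6 of 24 fits with 1 library left out, those without cwo5073 ZT22 numbered 1, WT ZT18 numbered 2 or any WT library of ZT2 and ZT22, and ranged over 0.84 to 1.59. Of the 7 genes 6 passed in this comparison, where 30.0% of all genes did. Each genotype has 1 series within a number, so a genotype difference there cannot be told apart from a difference between series.

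Within libraries numbered 2, none of the 4 female-biased genes passed with all libraries in the fit. The differences were 0.72 ± 0.30 in Yp1, 0.58 ± 0.36 in Yp2, 0.29 ± 0.34 in Yp3 and 0.04 ± 0.43 in fit (log2, SE; edgeR adjusted p = 0.203, 0.38, 0.62 and 0.972), where 6.04% of all genes passed. Without WT ZT18 numbered 2, cwo5073 was higher by 1.17 in Yp1, 1.13 in Yp2 and 0.81 in Yp3, and all 3 passed (edgeR adjusted p = 0.00315, 0.0119 and 0.0479), while fit differed by 0.68 and did not pass. At the 5 times other than ZT18, all 3 yolk protein genes were higher in the cwo5073 library numbered 2 than in the WT library numbered 2. The Yp1 difference also passed without WT ZT18 numbered 1 (0.76, adjusted p = 0.0209). Whether the genotypes differed by more in libraries numbered 1 than in those numbered 2 is the same contrast as the difference of the series between genotypes, given above, and passed for no member.

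The level of roX2 was lower in cwo5073 within libraries numbered 1 by 0.79 ± 0.14 (log2 difference -0.79, SE; edgeR adjusted p = 0.00178), at 6 of 6 times. Within those numbered 2 its log2 difference was -0.34 ± 0.14 (adjusted p = 0.196), lower at 4 of 6 times. Over all libraries roX2 passed (-0.52), and the call ended with 11 of 24 libraries left out in turn (-0.53 to -0.44, adjusted p = 0.0511 to 0.0701). These were the 6 cwo5073 libraries numbered 1, the WT ZT10 and ZT18 libraries numbered 1 and the WT ZT2, ZT6 and ZT14 libraries numbered 2.

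The sign of the roX1 difference was opposite in the 2 series. Within libraries numbered 1, roX1 was at 393 to 493 CPM in cwo5073 and at 216 to 381 CPM in WT, without overlap, with a log2 difference of 0.46 ± 0.35 (SE; edgeR adjusted p = 0.345). Within libraries numbered 2 it was at 165 to 566 CPM in cwo5073 and at 255 to 2536 CPM in WT, lower in cwo5073 at 6 of 6 times (log2 difference -1.18 ± 0.36, edgeR adjusted p = 0.0733). Neither passed with all libraries in the fit. The first passed without WT ZT2 numbered 2 (0.60, adjusted p = 0.0178) and the second without WT ZT2 numbered 1 (-1.11, adjusted p = 0.00124). Over all libraries the log2 difference was -0.39 ± 0.30 (edgeR adjusted p = 0.346). It was 0.06 (adjusted p = 0.853) without WT ZT2 numbered 2 and -0.53 (adjusted p = 0.0395) without WT ZT2 numbered 1.

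Although counted as male-biased, sxe2 rose with the yolk protein genes in the comparison of genotypes. It was higher in cwo5073 within libraries numbered 1 by 0.53 ± 0.10 and within those numbered 2 by 0.86 ± 0.10 (log2, SE; edgeR adjusted p = 0.00289 and 0.000176). Within libraries numbered 2 the genotypes did not overlap, with 115 to 156 CPM in cwo5073 and 55.6 to 106 CPM in WT, where 3.13% of all genes did not overlap. The call over all libraries was kept in 24 of 24 fits with 1 library left out (0.66 to 0.74).

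At single times, with 2 libraries a genotype, sxe2 at ZT14 was the only call among the 7 genes. It had 103 and 126 CPM in cwo5073 at ZT14, against 43.5 and 55.8 CPM in WT, a log2 difference of 1.20 ± 0.21 (SE; edgeR adjusted p = 0.0084, with 0.811% of all genes called at this time). This call ended without cwo5073 ZT14 numbered 2 (1.05) or WT ZT14 numbered 1 (1.03). The yolk protein differences ranged from 0.35 in Yp3 at ZT18 to 2.33 in Yp2 at ZT10, with SE of 0.96 to 1.23, and none passed. In a fit with the replicate number as a block within each genotype, roX2 at ZT2 passed (-1.08, adjusted p = 0.0199), and at ZT18 the differences of Yp2 (-0.12), Yp3 (-0.19) and fit (-0.45) had the opposite sign and did not pass. Background shares at the other times were 14.5% at ZT2, 0.829% at ZT6, 1.26% at ZT10, 0.757% at ZT18 and 1.16% at ZT22. The interaction of genotype and time passed for no gene (0% of 11095, with 267 at an unadjusted p under 0.05), and among the members its lowest adjusted p was 0.903.

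In WT the daily course of sxe2 and roX2 fitted a 24 h wave, and the yolk protein genes did not pass. The amplitude of sxe2 was 0.56 ± 0.12 on the log2 scale with its peak at ZT 2.09 ± 0.84 h (SE; edgeR adjusted p = 0.00493), where 5.62% of all genes passed. Its mean was 119 CPM at ZT2 and 49.7 CPM at ZT14, the highest and lowest of the 6 times. On the FPKM scale the sxe2 mean was instead highest at ZT22 (49.7), with 46.6 at ZT2 and 22.4 at ZT14. The library WT ZT2 numbered 2, with a normalization factor of 0.758, had 106 CPM but 32.4 FPKM of sxe2. The amplitude of roX2 was 0.67 ± 0.15 with a peak at ZT 3.88 ± 0.84 h (edgeR adjusted p = 0.0444), with 57.4 CPM at ZT2 and 20.4 CPM at ZT18. The roX2 call was kept in 8 of 24 fits with 1 library left out and ended at amplitudes of 0.59 to 0.72 (adjusted p = 0.0501 to 0.12). It was lost without WT ZT2, ZT6, ZT10, ZT14 or ZT18 numbered 2, WT ZT14, ZT18 or ZT22 numbered 1, cwo5073 ZT2, ZT6, ZT10 or ZT22 numbered 1, or cwo5073 ZT2, ZT6, ZT10 or ZT18 numbered 2.

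In cwo5073 none of the 7 genes passed the same test, where 1.09% of all genes did. The amplitude of sxe2 was 0.25 ± 0.06 with a peak at ZT 3.51 ± 0.95 h, and that of roX2 was 0.25 ± 0.20 (SE; edgeR adjusted p = 0.758 and 1). The mean of sxe2 was 166 CPM at ZT2 and 108 CPM at ZT18. The difference of the rhythms between genotypes passed for no gene by edgeR's test (0%, with 550 at an unadjusted p under 0.05), and its adjusted p was 0.689 for both sxe2 and roX2. For roX1 the WT amplitude was 0.54 ± 0.39 (adjusted p = 0.0919). Without WT ZT2 numbered 1 it was 0.87 (adjusted p = 0.0269). In the yolk protein genes the WT amplitudes were 0.36 to 0.70, with SE of 0.32 to 0.39. With 1 library left out they ranged over 0.21 to 0.63 in Yp1, 0.56 to 1.05 in Yp2 and 0.25 to 0.76 in Yp3, lowest without WT ZT18 numbered 2 and highest without WT ZT22 numbered 2, and did not pass.

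**Figure D3:**
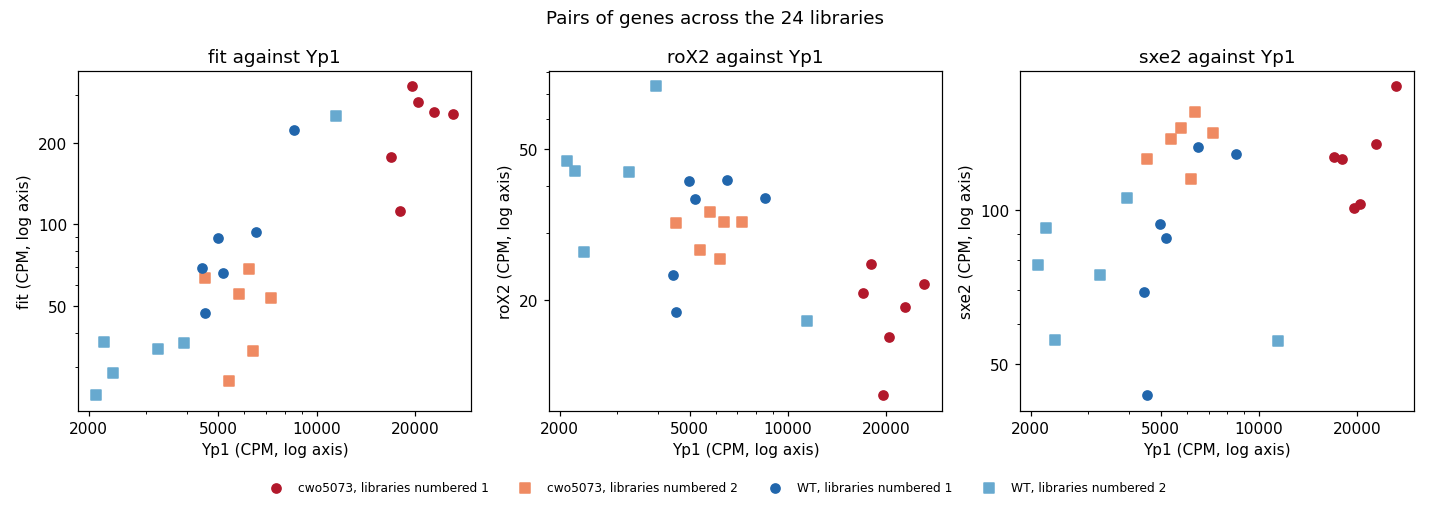
CPM of fit, roX2 and sxe2 (log axis) against CPM of Yp1 (log axis), one point per library. The cwo5073 libraries numbered 1 lie at the right in every panel, high in fit (112 to 322 CPM) and low in roX2 (11.2 to 24.8 CPM), while in sxe2 they span 101 to 175 CPM among the cwo5073 libraries numbered 2 (115 to 156 CPM).

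The 4 female-biased genes moved together from library to library in WT. Over the 12 WT libraries the log2 CPM of Yp1 correlated with that of Yp2 (Pearson r = 0.958, permutation p = 3e-05, Spearman rho = 0.902, permutation p = 0.0002), of Yp3 (r = 0.984, rho = 0.944) and of fit (r = 0.946, rho = 0.923). All 6 pairs among these 4 genes had r of 0.901 to 0.984, with adjusted permutation p of 0.000158 to 0.00042 for r and 0.00063 to 0.00242 for rho over the 63 relations computed, and the smallest unadjusted p, 1e-05, is the smallest that 100000 resamples can give. Without the 2 libraries farthest from the median, r was 0.840 to 0.976. Within the 6 cwo5073 libraries of each number, Yp1 and Yp3 had r of 0.940 (numbered 1) and 0.887 (numbered 2), each with an exact permutation p of 0.0111 and an adjusted p of 0.0777. Yp1 and fit had r of 0.531 and -0.02 there (exact permutation p = 0.276 and 0.974), and this relation did not pass within a mutant series.

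No relation of a male-biased gene to a female-biased one passed. Over the 12 WT libraries, r between Yp1 and roX2 was -0.371 (permutation p = 0.238), between Yp1 and roX1 -0.205 (permutation p = 0.53) and between Yp1 and sxe2 0.16 (permutation p = 0.619). The pair roX2 and sxe2 had r = 0.742 and rho = 0.643 (permutation p = 0.00636 and 0.0276, adjusted p = 0.0572 and 0.158), which fell to r = 0.51 without the 2 libraries farthest from the median. Between roX1 and roX2, r was 0.541 with all 12 and -0.121 without these 2.

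Sex-specific splicing was read without the 7 genes, from dsx, tra and Sxl, which gave unlike shares in some libraries. The transcripts of dsx (doublesex) end in a female or a male form, which differ in their last exons, and were told apart by their annotated coding length, 427 amino acids in the 3 female forms and 549 or 572 in the 3 male ones. The female form held 56.0% ± 11.5 of dsx FPKM in cwo5073 and 42.6% ± 22.0 in WT (SD, n = 12 each), a difference of 13.4 percentage points (two-sided permutation test, p = 0.0736, adjusted p = 0.553 over 15 comparisons). Between the mutant series, which differ several-fold in yolk protein transcripts, the share was 55.7% in libraries numbered 1 and 56.4% in those numbered 2 (exact permutation test, p = 0.916). In WT it was 42.2% in libraries numbered 1 and 43.0% in those numbered 2 (exact permutation test, p = 0.959).

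The dsx share varied widely between libraries of the same set. It ran from 40.1% to 67.8% in cwo5073 libraries numbered 1 and from 33.7% to 72.3% in those numbered 2. In WT it ran from 13.8% to 64.1% in libraries numbered 1 and from 2.61% to 65.8% in those numbered 2. The value of 2.61% is that of WT ZT2 numbered 2, where the coverage of the female form came to 5.59 reads of 75 bp, against 120 reads for the male form. WT ZT18 numbered 2, the high yolk protein library, had 47.5%. Within the 12 WT libraries and within each mutant series, no relation of the dsx share to the level of a member passed (21 relations, lowest adjusted permutation p = 0.605).

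**Figure D4:**
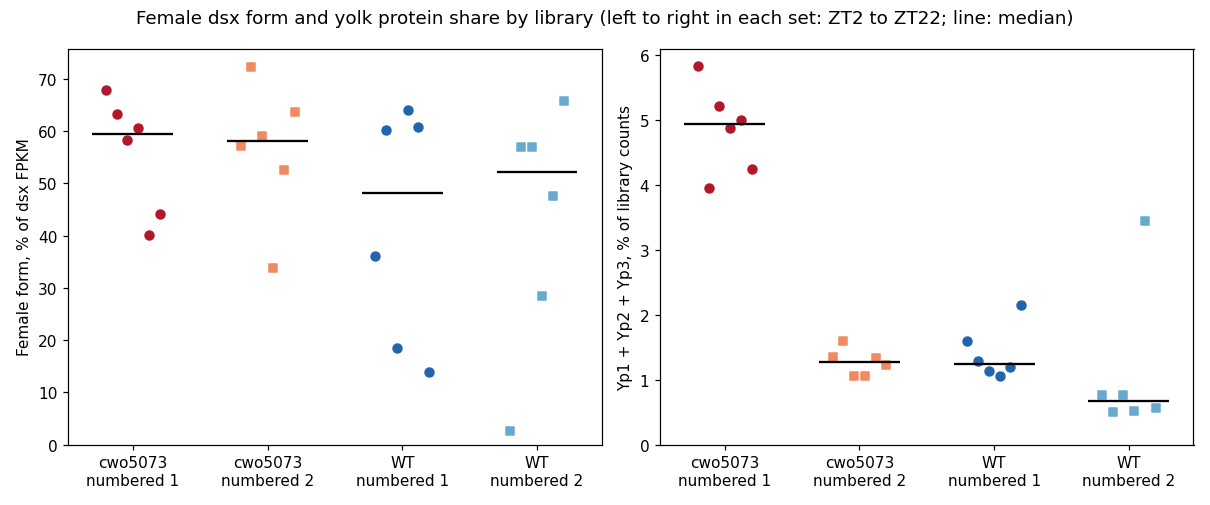
Left, share of dsx FPKM in the female form (percent); right, share of all counts taken by Yp1, Yp2 and Yp3 (percent); one point per library in order of ZT within each set, with the median as a line. On the left the medians lie at 59.3% and 58.1% in the 2 cwo5073 series and 48.1% and 52.2% in the 2 WT series, and on the right the cwo5073 libraries numbered 1 lie at 3.95% to 5.83%.

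The forms of tra and Sxl, which act upstream of dsx, did not differ past the threshold. The female form of tra, with the long reading frame, held 5.37% ± 6.67 of tra FPKM in cwo5073 and 12.5% ± 17.0 in WT (SD, n = 12 each; two-sided permutation test, p = 0.19) and was listed at 0 in 7 of 12 cwo5073 and 4 of 12 WT libraries. Its highest share, 62.9%, was in WT ZT2 numbered 2, the library with the lowest dsx share. Sxl transcripts with a long reading frame held 67.7% ± 15.4 of matched Sxl FPKM in cwo5073 and 68.8% ± 19.3 in WT (permutation p = 0.876). Sxl transcripts matching no coding model, left out of this share, had a mean of 9.2 FPKM in cwo5073 and 14.1 FPKM in WT. None of the 15 comparisons passed after adjustment. All 3 shares rest on the division of reads between overlapping models by the submitters' software. The Sxl share was 99.7% in WT ZT2 numbered 2 and 99.9% in WT ZT22 numbered 1. The dsx share of these libraries was 2.61% and 13.8%. The 3 shares therefore do not give 1 reading of sex, and none was set against flies of known sex.

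Of the 11 genes of the sex determination list, dsx was the one called over all times by edgeR's test, where 28.0% of all genes were called. It was higher in cwo5073 by 0.63 ± 0.12 (log2, SE; adjusted p = 0.00159), at 59.1 ± 9.78 CPM in cwo5073 and 39.7 ± 12.7 CPM in WT (SD, n = 12 each). The other 10, among them Sxl, tra, tra2, fru and ix, did not pass, and the median of the list was 0.05, against -0.01 over all genes tested. Of the 9 dosage compensation genes 3 were called, a share near that over all genes: msl-1, the scaffold of the MSL complex, rose by 0.27 ± 0.09 (adjusted p = 0.0372) and msl-3 fell, with a log2 difference of -0.45 ± 0.09 (adjusted p = 0.00313), beside roX2. The gene msl-2, which only males translate, was at 58.5 ± 4.36 CPM in cwo5073 and 49.9 ± 10.5 CPM in WT (adjusted p = 0.0578). The median log2 difference was -0.01 over 1852 X-linked genes and -0.01 over 9242 autosomal genes, with 244 higher and 212 lower among the X-linked and 1321 higher and 1326 lower among the autosomal genes.

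Of 6 male-biased head genes, among them roX1, roX2 and sxe2, 3 rose and 1, roX2, fell over all times (median 0.42), where 14.1% of all genes were called higher and 13.9% lower. The 2 that rose beside sxe2 were Obp99b, an odorant-binding protein gene, by 1.17 ± 0.27, and takeout (to), a gene of the male head fat body, by 0.69 ± 0.12 (log2, SE; edgeR adjusted p = 0.00724 and 0.000966). Obp99b averaged 373 ± 153 CPM in cwo5073 and 199 ± 164 CPM in WT. Cyp4d21 (sxe1) was at 90.4 ± 28.5 and 83.9 ± 32.3 CPM in the same order and did not pass (adjusted p = 0.348). Between the mutant series, none of these 6 was called higher in libraries numbered 1. Of 7 female-biased head genes, among them Yp1, Yp2, Yp3 and fit, 6 rose and none fell over all times (median 1.47, with 14.1% of all genes called higher). Between the mutant series 5 of the 7 were higher in libraries numbered 1, where 1.00% of all genes were. Yp1, Yp2 and Yp3 are among the 6, and they and fit are among the 5. Beside the yolk protein genes, Obp99a, an odorant-binding protein gene, rose by 1.44 ± 0.49 (adjusted p = 0.0389), at 56.3 ± 57.1 CPM in cwo5073 and 21.6 ± 25.8 CPM in WT. Lsp2, a larval serum protein gene, had the highest log2 difference of the list, 4.41 ± 0.87 (adjusted p = 0.00259), at 128 ± 161 CPM in cwo5073 and 30.8 ± 92.0 CPM in WT. Its means in libraries numbered 1 were 238 CPM in cwo5073 and 6.23 CPM in WT. In those numbered 2 the means were in the other order, with 18.5 CPM in cwo5073 and 55.3 CPM in WT. The WT SD of 92.0 CPM exceeds both WT means, so the mean of 55.3 CPM can rest on few libraries. The order of these means need not hold at each time. The log2 difference averages the times on the log scale, unlike these means. The fifth gene higher in libraries numbered 1 was CG6188, at a mean of 98.4 CPM in cwo5073 libraries numbered 1 and 20 CPM in those numbered 2 (2.28 ± 0.50, adjusted p = 0.0404).

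Yolk and lipid transport genes rose in part. Of 14 listed, 12 were tested and 6 rose and 1 fell over all times, with a median of 0.43, against -0.01 over all genes, of which 14.1% were called higher and 13.9% lower. The list holds Yp1, Yp2 and Yp3, so of its other 9 tested genes 3 rose. Rfabg, the precursor of the lipid carrier apolipophorin, rose by 1.13 ± 0.26 (log2, SE; edgeR adjusted p = 0.00678) and averaged 2875 and 1375 CPM in cwo5073 libraries numbered 1 and 2, against 1051 and 904 CPM in WT. Mtp, which loads lipid onto Rfabg products, rose by 0.64 ± 0.17 (adjusted p = 0.0134), and the lipase gene bmm rose by 0.41 ± 0.10 (adjusted p = 0.00757). The lipocalin gene NLaz fell (-0.38 ± 0.12, adjusted p = 0.0286). Between the mutant series, Mtp was higher in libraries numbered 1 by 0.69 ± 0.15 (adjusted p = 0.0432) and Rfabg differed by 1.04 ± 0.27 (adjusted p = 0.0699).

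The summed level of fat body markers had its highest median, 4735 CPM, in the mutant libraries numbered 1. In WT it followed the yolk protein genes in part. The summed level of 13 listed fat body genes, which include Rfabg and Lsp2 but no member, ran from 2884 to 6492 CPM in cwo5073 libraries numbered 1 and from 1893 to 2734 CPM in those numbered 2. In WT it ran from 1571 to 2532 CPM in libraries numbered 1 and from 1024 to 3089 CPM in those numbered 2, the highest being ZT18, the library with the high yolk protein level. Rfabg and CG3523 made up most of the sum, at means of 2875 and 1192 CPM in cwo5073 libraries numbered 1. In those numbered 2 they had 1375 and 755 CPM. Between the mutant series, Lsp2 (log2 difference 3.74), CG6188 (2.28) and Fbp1 (1.93) differed by more than Rfabg (1.04). The tested genes bmm (0.10), AkhR (0.18), Lsd-1 (0.34), CG3523 (0.67) and tobi (-0.25) differed by less. WT ZT22 numbered 1, the highest of its series in yolk protein counts (2.15%), had a fat body sum of 1757 CPM, below 4 of the other 5, and the highest sum of that series was at ZT10 (2532 CPM), where the yolk protein share was 1.13%. Of the 9 fat body genes tested, 4 rose and 1, tobi, fell over all times (median 0.45), where 14.1% of all genes were called higher and 13.9% lower, and 2 were higher in mutant libraries numbered 1 than in those numbered 2 (1.00% of all genes). The list shares Rfabg, bmm, Lsd-1 and CG3523 with the yolk and lipid list and CG6188 and Lsp2 with the female-biased list. Of its defining larval genes, Lsp1alpha was at 0 in 18 and Fbp2 at 0 in 20 of 24 libraries. The part of this in the differences between libraries was not tested.

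Ovary and testis markers were near 0 in all 24 libraries. The summed level of 15 ovary genes, among them vas, nos, osk and the eggshell genes, was 1.27 to 3.68 CPM in cwo5073 and 1.21 to 4.86 CPM in WT, and Cp16 had no count in any library, where 3 counts correspond to 0.153 to 0.265 CPM. The 10 testis and accessory gland genes summed to 0.966 to 3.04 CPM in cwo5073 and 1.60 to 5.05 CPM in WT, with Acp26Aa and SP (the sex peptide gene) at 0 throughout. The 9 gut genes summed to 1.77 to 8.44 CPM in cwo5073 and 3.39 to 47.9 CPM in WT, the highest again in WT ZT18 numbered 2. Photoreceptor markers, led by the opsin gene ninaE, summed to 53713 to 73705 CPM in cwo5073 and 44218 to 61180.4 CPM in WT, and of the 9 listed 4 rose and 1 fell over all times, where 28.0% of all genes were called.

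The genes most like the yolk protein genes across the 24 libraries were sought among 7832 genes with a mean log2 CPM of at least 3. The correlations are descriptive, and the libraries share their series and genotype. Closest to the mean of Yp1, Yp2 and Yp3 was Glt, the basement membrane gene glutactin (r = 0.979), with 372 and 129.8 CPM in cwo5073 libraries numbered 1 and 2, against 114 CPM in WT. After it came CG2736 (0.954), Mtp (0.947), CG14629 (0.944), the nidogen gene Ndg (0.933), CG3835 (0.928), CG3775 (0.925), su(r), CG2233 and CG3597 (0.924 each). Ndg had 35 and 15 CPM in cwo5073 libraries numbered 1 and 2, against 14.6 CPM in WT. The most opposite genes were cmpy (-0.9), bwa (-0.879), CG14274 (-0.872), CG13108 (-0.848) and UbcD6 (-0.842), whose ranges were smaller, cmpy for example at 46.4 and 55.7 CPM in cwo5073 libraries numbered 1 and 2, against 61.1 CPM in WT.

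Each of the other members had a different set of neighbours. For fit they were CG2233 (r = 0.956), CG14629 (0.915) and CG15096 (0.912), of which the first 2 also stood near the yolk protein genes. For roX1 they were mam, a co-activator gene of the Notch pathway (0.9), eIF4G2 (0.892) and CG8405 (0.870). In WT ZT2 numbered 2, where roX1 stood apart at 2536 CPM, these genes had 293, 509.8 and 265 CPM. Their WT means were 91.6, 227 and 137 CPM. How far the correlations rest on this library was not tested. For roX2 they were ventrally-expressed-protein-D (0.913), the dynein light chain gene Dlc90F (0.905) and ghi (0.896). In WT ZT2 numbered 2 these had 20.2, 126 and 63.3 CPM, against WT means of 12.3, 81.7 and 43.9 CPM. For sxe2 they were CG31205 (0.846), the cytochrome P450 gene Cyp4aa1 (0.840) and CG3831 (0.810).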

How the data were processed

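Per the labels' protocols, poly(A) RNA from heads was taken from 1.0 µg of total RNA, made into directional libraries (12 cycles of PCR) and sequenced from 1 end for 75 bp. The treatment text names fewer collection times than the titles, and the titles were followed. Tools named in the submitters' processing notes, without roles, are StringTie, STAR 2.6.1d and DESeq2, with the dm6 build. The deposited gene table holds expected counts, whole numbers estimated from assembled coverage and not scaled to depth. Per the file headers, the authors' transcript tables give FPKM and coverage (a signal per base), and a second table by the authors gives FPKM per gene.

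The 5 gene names turned into dates (at most 0.0275% of counts) were left out of tests and library sizes. Genes kept by filterByExpr (minimum count 10) were scaled by TMM and tested with edgeR 4.0.16 (limma 3.58.1, R 4.3.3), with Benjamini-Hochberg adjustment over 11095 genes and a threshold of 0.05. The genotype difference over all times contrasted the average of the 6 cwo5073 groups with that of the 6 WT groups, with no replicate term. The comparisons of library numbers, and of genotypes within a number, added a replicate term in each genotype. Rhythms used a cosine and a sine of 24 h per genotype, with amplitude and peak from least squares on log2 CPM (prior count 2). Correlations and transcript shares used permutation tests, with 100000 resamples or exact, in Python 3.11.15 (scipy 1.17.1). Gene positions and chromosomes come from the authors' transcript tables, and coding lengths from Ensembl gene models. The fits were tried on simulated counts in which libraries varied independently apart from the effects put in. How the tests behave when libraries of 1 number vary together was not covered. Nothing says that replicates are separate collections, so p-values measure only how these samples vary, which may be technical.

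Same-numbered libraries deviated together (correlation over 0.1) in 14 of 15 pairs of times in cwo5073 and in 3 of 15 in WT. Across genotypes this held in 2 of 6 pairs, so the numbers were not taken as pairing the genotypes. The cwo5073 libraries of 1 number varied together and are not independent of each other, though the genotype tests counted each as 1 replicate. Members, lists and the rule for named genes were chosen with earlier results of these data known. Named genes are the members, listed genes called over all times, and the genes most correlated with the members. Alternatives were DESeq2 1.42.0 as test and as size factors, no filter, limma with trend on log2(FPKM + 1) or log2(FPKM + 0.1), ZT6 to ZT18 only, replicate blocks, each library left out and, chosen after seeing the data, length offsets and 2 libraries left out together. Intervals and floors of 3 counts cover counting error only.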

Additional observations from a re-analysis of the deposited data

Results flagged for a closer look

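Within each set of 6 libraries of 1 genotype and 1 number, the highest and lowest library was compared with its nearest neighbour (Dixon's criterion). Over 32 sets of the 7 genes and of the dsx share, 7 had a library that stood apart. Chance gives about 1 in 20 such sets for values drawn from 1 normal distribution. These sets hold unlogged CPM or shares at 6 times of day, and sets of correlated genes are not independent. The 7 therefore cannot be set against that rate. All 7 were in WT. Of them 4 were 1 library, WT ZT18 numbered 2: Yp1 at 11427 CPM (next 3934), Yp2 at 8024 CPM (next 2428), Yp3 at 13701 CPM (next 3723) and fit at 250.2 CPM (next 37.1). In WT ZT22 numbered 1, Yp3 was at 7729 CPM (next 4952) and fit at 222 CPM (next 93.7). In WT ZT2 numbered 2, roX1 was at 2536 CPM (next 639).

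WT ZT2 numbered 2 also stood apart over all genes, with a median Spearman correlation with the other libraries of 0.893, against 0.953 to 0.982 in the other 23. WT ZT18 numbered 2 did not, at 0.976. What sets the yolk protein level of that library was not tested, since the labels say nothing of the flies in it.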

How the results depend on the processing

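With 2 libraries a group, single times have little precision. The comparisons of library numbers cannot be told apart from any difference in how the 2 series of libraries were obtained, which no source used here describes. The sxe2 difference over all times kept its call under every alternative run (adjusted p = 2.62e-15 to 0.00064). Of the values under all alternatives, 1362 kept direction and side of the threshold, and these include results that were never called. A further 128 lost a call, 16 gained one, 13 changed sign and 8 counts of genes called moved. The number of genes called over all times was 3104; it was 1962 and 2032 by limma on FPKM (pseudocount 0.1 and 1), 789 over ZT6 to ZT18 only, and 1973 to 5592 with 1 library left out (5592 without WT ZT2 numbered 1, and 1973 to 2005 without a cwo5073 library numbered 1 at ZT6, ZT14, ZT18 or ZT22). The cause of the changes below was not tested.

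The calls over all times ended as follows. Over ZT6 to ZT18 only, which uses fewer groups: Yp1 1.51, Yp2 1.80, Yp3 1.41, roX2 -0.40. By limma on FPKM with pseudocounts 0.1 and 1: Yp2 1.37 and 1.37, Yp3 1.10 and 1.10. With length offsets, roX2 was -0.41. Without WT ZT2 and ZT18 numbered 2 together, Yp3 was 1.51 and roX2 -0.48, roX1 turned to 0.088, the roX1 differences passed between the mutant series (0.69) and between genotypes in libraries numbered 1 (0.60), and the yolk protein differences in libraries numbered 2 passed (1.27, 1.32 and 0.99 in Yp1, Yp2 and Yp3). Without a filter on low counts, the fit call in libraries numbered 1 (1.23) and the roX2 rhythm in WT (0.67) ended.

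With the replicate number as a block shared by both genotypes, the differences over all times were 1.25, 1.28, 1.03, 0.64, -0.36, -0.56 and 0.69 in Yp1, Yp2, Yp3, fit, roX1, roX2 and sxe2, no call changed, and 3586 genes were called. With a block within each genotype, 3824 genes were called; at ZT2 the roX2 difference passed (-1.08), and at ZT18 the sign turned in fit (-0.45), Yp2 (-0.12) and Yp3 (-0.19), none of which passed. From coverage times length, the dsx share was higher by 1.48 percentage points in libraries numbered 1 in cwo5073 and by 0.688 in WT, the sign being opposite from FPKM.

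With 1 library left out, log2 differences over all times ranged over 1.31 to 1.89 in Yp2, 1.07 to 1.60 in Yp3, -0.64 to -0.44 in roX2, -0.53 to 0.06 in roX1 and 0.52 to 1.23 in fit. Between the mutant series they ranged over 1.73 to 1.93 in Yp1, 2.19 to 2.45 in Yp2, 2.10 to 2.32 in Yp3, 2.00 to 2.45 in fit, 0.57 to 0.89 in roX1 and -0.78 to -0.64 in roX2. In libraries numbered 1 they ranged over 0.84 to 1.59 in fit and 0.086 to 0.68 in roX1. In libraries numbered 2 they ranged over 0.49 to 1.17 in Yp1, 0.33 to 1.13 in Yp2, 0.047 to 0.81 in Yp3, -0.24 to 0.68 in fit and -1.39 to -0.60 in roX1. The fit value was 0.725 without the 2 WT libraries left out together. The sxe2 difference at ZT14 ranged over 1.03 to 1.39, and the WT amplitudes over 0.085 to 0.87 in roX1 and 0.59 to 0.76 in roX2. The fit difference in libraries numbered 2, not called, turned to -0.24 without WT ZT22, -0.21 without cwo5073 ZT22, -0.07 without cwo5073 ZT6, -0.06 without WT ZT6, -0.03 without WT ZT2 and -0.02 without WT ZT10 numbered 2.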
